A study of Mus musculus with 13 samples.

Results

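This section describes 40 genes of mitosis and the G2/M phase of the cell cycle in mouse splenic B cells, with and without Regnase-1 and with and without stimulation of the B cell receptor (BCR). The members were chosen by symbol from a fixed list: CDK1 and its cyclins, mitotic kinases, the spindle checkpoint, the anaphase-promoting complex with sister separation, kinetochore proteins, spindle motors, cytokinesis genes and 2 common proliferation marks. All 40 had a row among the 23337 symbols of the deposited count tables, and all 40 were among the 13574 genes that passed a filter on low counts and were tested. Regnase-1 is an RNase that cleaves messenger RNAs and is encoded by Zc3h12a.

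The libraries fall into 4 groups. Control cells were Regnase-1+/+ hCD20TamCre and were labelled wild type. Deficient cells were Regnase-1f/f hCD20TamCre, so both genotypes carried the Cre. That Cre is a tamoxifen-activated recombinase under a human CD20 promoter, CD20 being a surface protein of B cells, and deletion is thus aimed at B cells. The tamoxifen schedule, strain, age and sex are not in the labels. The unstimulated groups were naive cells labelled untreated, with 4 control and 3 deficient libraries, and their time in culture is not in the labels either. The stimulated groups, 3 control and 3 deficient libraries, had received anti-IgM F(ab')2, which cross-links the BCR, for 4 h. B cells had been purified from spleen by negative selection with CD43 beads, which leaves resting B cells untouched and removes most cells that carry CD43. A number in each title (1 to 4) joins an unstimulated library to a stimulated one of the same genotype; the labels do not say that it marks a mouse, and libraries that share it are called a pair below. Control library 4 had no stimulated partner. Since nothing states that the libraries of a group came from separate animals, p-values measure the spread between these libraries, which may in part be technical.

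Mitosis begins when CDK1, bound to B-type cyclins, phosphorylates its targets, and ends when the anaphase-promoting complex marks cyclin B and securin for destruction. The genes of this programme share 1 wave of transcription late in the cell cycle, driven by B-Myb with the MuvB complex and by FOXM1, and in resting cells the DREAM complex holds them down. Naive B cells in the spleen are mostly quiescent, and after BCR ligation they grow for many hours before they divide. The mouse spleen also holds dividing precursors of red cells and of granulocytes.

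Total counts ran from 21407724 to 33244755 per library. Zc3h12a, read as a check of the labels, averaged 125 ± 4.08 CPM (SD, n = 4) in control against 99.8 ± 10.8 CPM (SD, n = 3) in deficient libraries without stimulation, and 153 ± 5.58 CPM (SD, n = 3) against 102 ± 9.99 CPM (SD, n = 3) with it, where CPM are counts scaled to the TMM-normalized library size. The groups did not overlap in either state, and the log2 differences were -0.32 ± 0.074 (SE; edgeR adjusted p = 0.106) and -0.58 ± 0.079 (SE; edgeR adjusted p = 7.84e-04), so that only the second passed. The counts do not separate reads of the deleted part of the gene from the rest. Markers of mature B cells were high throughout: 9 genes summed to between 5728 and 6835 CPM in unstimulated and between 2748 and 3040 CPM in stimulated libraries. Markers of other cells were present in all libraries at levels that differed between them, and the values of those that moved with the mitosis genes are given beside those genes. Xist and Y-linked genes showed that deficient pair 1 was female and deficient pairs 2 and 3 male, whereas control pair 1 was male and the other control libraries female.

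Both libraries of deficient pair 1 stood apart in the levels of the members themselves. The median deviation of the 40 members from their mean log2 CPM over the 13 libraries was 1.19 in its unstimulated and 0.81 in its stimulated library. In the other 11 libraries that median ran from -0.58 to 0.46, the highest being control unstimulated library 4. Results that rest on deficient pair 1 are therefore given with and without it. The pair was singled out by the levels of the same members, with earlier results of these data known.

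Promoters of the members were compared first by sequence, because genes of this wave are known for 2 short elements close to the start of transcription. The CHR element, TTTGAA or TTCGAA, is bound by MuvB complexes, and the CCAAT box is bound by NF-Y. RefSeq windows of 300 bases (GRCm38.p6, 250 before to 50 after the start) were at hand for 34 of the 40 members, some with more than 1 start, giving 37 windows. The CHR letters, searched on both strands, were in 81.1% of the members' windows against 19.2% of all 32851 windows. CCAAT on either strand was in 78.4% against 37.4%, and a window with both in 73% against 7.52%. The motifs were searched separately, so matches of different motifs may share bases, and TTCGAA, which reads the same on both strands, was counted once. A match is a description of letters and not evidence of binding. Ccna2, Cdc25c, Foxm1, Aurkb, Tpx2 and Kif20a had no entry. The following stretches, each 200 bases directly before the RefSeq start, show a promoter rich in both motifs (Top2a), further examples with both (Ccnb2, Mki67 and Kif11) and one with no match to either (Mad2l1). Capitals mark every match of the motifs above, on either strand.
Top2a: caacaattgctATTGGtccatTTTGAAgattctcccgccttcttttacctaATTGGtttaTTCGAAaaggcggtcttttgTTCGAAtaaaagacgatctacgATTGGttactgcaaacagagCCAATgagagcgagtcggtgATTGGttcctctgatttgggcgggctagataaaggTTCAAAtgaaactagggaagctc
Ccnb2: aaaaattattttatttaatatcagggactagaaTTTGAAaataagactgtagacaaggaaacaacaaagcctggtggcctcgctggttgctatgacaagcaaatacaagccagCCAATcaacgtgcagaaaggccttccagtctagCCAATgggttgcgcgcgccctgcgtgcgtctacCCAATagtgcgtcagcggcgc
Mki67: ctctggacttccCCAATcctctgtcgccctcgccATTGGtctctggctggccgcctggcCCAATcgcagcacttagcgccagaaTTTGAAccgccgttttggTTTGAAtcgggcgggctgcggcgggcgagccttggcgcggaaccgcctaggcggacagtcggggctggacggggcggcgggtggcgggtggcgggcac
Kif11: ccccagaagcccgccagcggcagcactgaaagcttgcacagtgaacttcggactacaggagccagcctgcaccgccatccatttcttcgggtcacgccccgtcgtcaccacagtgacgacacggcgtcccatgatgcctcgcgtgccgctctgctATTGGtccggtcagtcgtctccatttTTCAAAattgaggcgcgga
Mad2l1: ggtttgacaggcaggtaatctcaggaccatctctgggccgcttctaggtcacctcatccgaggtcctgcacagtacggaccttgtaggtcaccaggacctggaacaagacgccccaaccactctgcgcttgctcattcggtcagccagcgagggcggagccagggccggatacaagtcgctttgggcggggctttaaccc
The positions are chr11:99024190-99024389, minus strand for Top2a, chr9:70421555-70421754, minus strand for Ccnb2, chr7:135716380-135716579, minus strand for Mki67, chr19:37376182-37376381, plus strand for Kif11 and chr6:66535021-66535220, plus strand for Mad2l1. Top2a held 4 CHR and 5 CCAAT matches, Ccnb2 1 and 3, Mki67 2 and 3, and Kif11 1 of each. For Mad2l1 the GENCODE start, chr6:66535390, lies past the end of the RefSeq window at 66535270. Bases next to that start were not searched.

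Levels of the members were low to moderate in these cells, and Mki67 led. Per kilobase of exon (all exon bases of the gene in GENCODE vM21, mm10), the mean over control unstimulated libraries was 34.1 CPM for Mki67, 12.5 for Bub3, 11.3 for Ube2c and 9.36 for Top2a, and the lowest were 1.13 for Anln, 0.874 for Ttk and 0.356 for Cdc25c. These levels per length compare genes only roughly. The exon bases of all isoforms were pooled, so the divisor may exceed the length of any 1 transcript, by an amount that differs between genes. All further values in CPM are not divided by length. Counts behind the members ran from 20 reads (Cdc25c) to 29580 reads (Mki67) in a library. The summed CPM of the 40 members without stimulation was 953, 1350, 964 and 1601 for control libraries 1 to 4, and 2458, 1066 and 1300 for deficient libraries 1 to 3. After stimulation it was 810.0, 1029 and 783 for control libraries 1 to 3 and 2011, 778 and 897 for their deficient counterparts. Mki67 alone gave between 20.7% and 35.0% of these sums. The sum was higher before than after stimulation in every one of the 6 pairs, and the libraries of deficient pair 1 were the highest of their state.

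**Figure D1:**
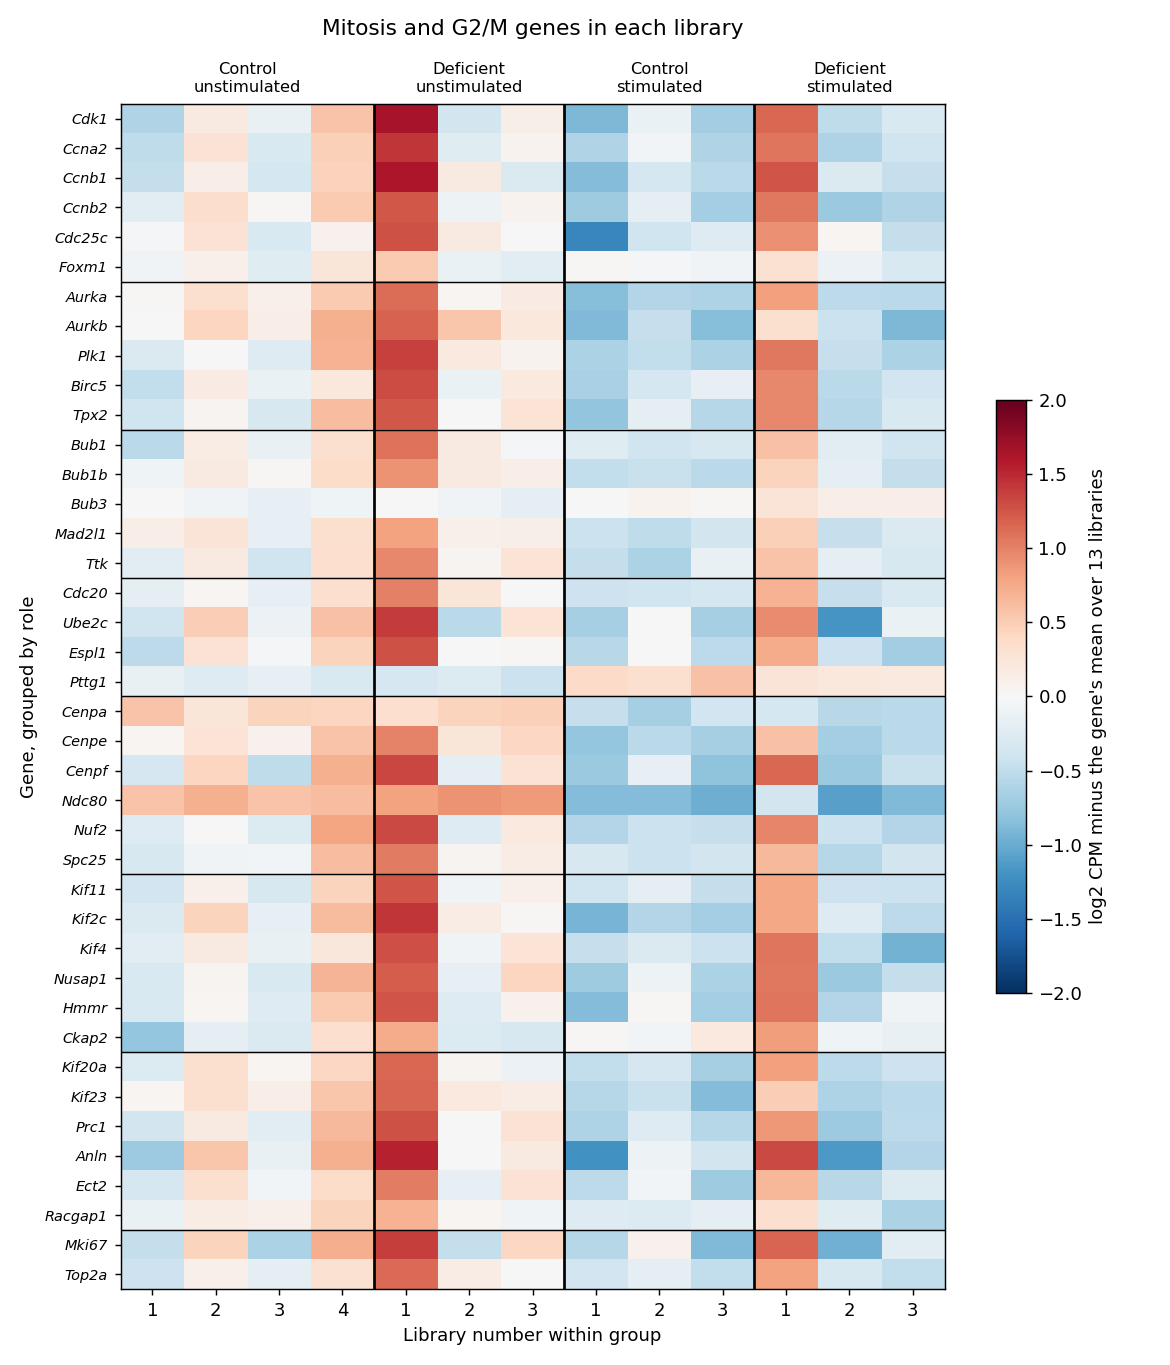
Heat map of log2 CPM of each member (rows, grouped by role) in each library (columns, by group and library number), shown as the difference from the gene's mean over the 13 libraries. Red columns mark deficient library 1 in both states, with median deviations of 1.19 and 0.81; Ndc80, Cenpa and Pttg1 instead follow stimulation.

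Stimulated libraries had lower levels of most mitosis genes than unstimulated ones, in both genotypes. In control cells 7 members fell (Ndc80, Aurkb, Aurka, Cenpa, Cenpe, Kif23 and Bub1b) and 1 rose (Pttg1). In deficient cells 3 fell (Ndc80, Aurkb and Cenpa) and 2 rose (Pttg1 and Bub3). With the pair as a block, which compares each stimulated library with its own unstimulated partner, 28 members fell and 2 rose in control cells, and 33 fell and 2 rose in deficient cells. In log2 CPM 31 of 40 members were lower after stimulation in all 6 pairs (36.7% of all genes tested were), and 3, Pttg1, Ckap2 and Bub3, were higher in all 6 (31.2% of all genes). The groups did not overlap for 2 members higher and 15 lower in control cells (29.7% and 33.7% of all genes) and for 2 higher and 2 lower in deficient cells (30.1% and 31.9%).

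These counts stand against a response that reached most of the transcriptome. In control cells 28.5% of all genes tested were called higher and 31.8% lower at an edgeR adjusted p under 0.05, so that 7 of 40 lower is a smaller share than in the background. With the pair as a block the background was 29.4% higher and 35.8% lower, against 2 and 28 of the 40 members. In deficient cells the background was 28.3% higher and 29.6% lower without the block, and 30.8% and 34.8% with it, against 2 and 33 members. The median log2 change of the members was -0.56 in control and -0.43 in deficient cells without the block (-0.13 and -0.11 over all genes), and -0.34 and -0.45 with it (-0.12 and -0.11). Within single pairs the members' median was -0.28, -0.48 and -0.30 for control pairs 1 to 3 and -0.35, -0.47 and -0.57 for deficient pairs 1 to 3. In bulk RNA, fewer cells of a type and less RNA per cell cannot be told apart.

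Among the cyclins, CDK1 and their activators, Ccna2 was the highest member. Cyclin A2, its product, binds CDK1 and CDK2 from S phase to early mitosis. Its level was 22.8, 39.8, 26.3 and 45.01 CPM for unstimulated control libraries 1 to 4 and 21.3, 31.2 and 21.4 CPM in control stimulated libraries 1 to 3. Deficient libraries 1 to 3 held 87.7, 27.4 and 33.9 CPM without and 68.03, 21 and 24.5 CPM with stimulation. The groups overlapped, but each stimulated library lay below its partner. The log2 change was -0.44 ± 0.54 (SE; edgeR adjusted p = 0.504) in control and -0.40 ± 0.56 (SE; edgeR adjusted p = 0.573) in deficient cells, and with the pair as a block -0.25 ± 0.075 (SE; edgeR adjusted p = 0.00621) and -0.40 ± 0.073 (SE; edgeR adjusted p = 7.81e-05). Cdk1 (the mitotic kinase), Ccnb1 and Ccnb2 (its cyclin B partners) were also called lower with the block in both genotypes, by between 0.35 and 0.58 on the log2 scale. None of the 6 genes was called without the block. Cdc25c, the phosphatase that activates CDK1, was the lowest member, with log2 changes of -0.66 ± 0.31 (SE; edgeR adjusted p = 0.0696) and -0.33 ± 0.28 (SE; edgeR adjusted p = 0.317) with the block. Foxm1, a transcription factor for the programme, was called in neither genotype, with 0.037 ± 0.084 (SE; edgeR adjusted p = 0.719) and -0.098 ± 0.084 (SE; edgeR adjusted p = 0.318) in the same fit.

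Mitotic kinases and the chromosomal passenger complex included 2 of the members that fell without the block. Aurkb, the kinase of the passenger complex (chr11:69045647-69051664, mm10), stood at 13.5, 18.4, 14.9 and 22.3 CPM in control unstimulated and 7.31, 9.83 and 7.47 CPM in control stimulated libraries. In deficient libraries it went from 30.8, 20.1 and 15.8 CPM to 16.9, 10.1 and 7.29 CPM. All control stimulated libraries lay below all control unstimulated ones, whereas in the deficient groups stimulated library 1 lay above unstimulated library 3. The log2 change was -1.08 ± 0.31 (SE; edgeR adjusted p = 0.0113) in control and -0.96 ± 0.33 (SE; edgeR adjusted p = 0.0255) in deficient cells, a 2.11-fold and a 1.95-fold lower level. In deficient cells that call was lost without unstimulated library 1 (log2 change -0.65, adjusted p = 0.111), stimulated library 2 (-0.88, 0.0875) or stimulated library 3 (-0.72, 0.0892).

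Aurka, the spindle pole kinase (chr2:172356190-172370535), stood at 11.9, 14.5, 12.6 and 16.7 CPM in control unstimulated and 6.46, 7.78 and 7.58 CPM in control stimulated libraries. Deficient libraries held 25.5, 11.98 and 13.04 CPM and, after stimulation, 20.6, 8.08 and 8.03 CPM. The control groups did not overlap and the deficient groups did, because of library 1. Its log2 change was -0.94 ± 0.37 (SE; edgeR adjusted p = 0.0476) in control cells, a call that 8 of the 13 fits with 1 library left out lost, the weakest being without control stimulated library 1 (adjusted p = 0.137). In deficient cells it was -0.47 ± 0.38 (SE; edgeR adjusted p = 0.326), and with the pair as a block -0.84 ± 0.12 (SE; edgeR adjusted p = 3.59e-06) in control and -0.51 ± 0.11 (SE; edgeR adjusted p = 5.76e-04) in deficient cells. Tpx2, the activator of Aurora A, had the most reads of this group, though not the highest level per kilobase, at 17.6, 24.01, 18.6 and 35.5 CPM for control and 55.1, 23.1 and 28.2 CPM for deficient libraries without stimulation. With stimulation it stood at 13.4, 20.3 and 15.7 CPM and 45.4, 15.6 and 18.8 CPM. Its groups overlapped in both genotypes, and with the block it was lower by 0.29 in control and 0.47 in deficient cells on the log2 scale. Plk1, the polo-like kinase of mitotic entry, was called lower with the block in both genotypes, and Birc5 (survivin), a passenger subunit, in deficient cells, at -0.43 ± 0.11 (SE; edgeR adjusted p = 0.00235), but not in control cells, at -0.24 ± 0.12 (SE; edgeR adjusted p = 0.0827).

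The spindle checkpoint, which holds anaphase until all chromosomes are attached, held members that moved in opposite directions. Bub3, a checkpoint protein that binds kinetochores (chr7:131560222-131571895), was the most abundant of them and rose in deficient cells. It stood at 91.4, 87.5 and 80.2 CPM in deficient unstimulated and 110.5, 101 and 101 CPM in deficient stimulated libraries, with no overlap. Control libraries held 91.8, 88.04, 82.3 and 87.1 CPM and 92.3, 96.9 and 94.1 CPM, which did not overlap either. The log2 changes were 0.27 ± 0.063 (SE; edgeR adjusted p = 0.00156) in deficient and 0.11 ± 0.059 (SE; edgeR adjusted p = 0.11) in control cells. With DESeq2 size factors in place of TMM, the control change was 0.18 (edgeR adjusted p = 0.0121) and was called.

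Bub1b, the BubR1 checkpoint protein (chr2:118598211-118641591), was 20.6, 24.9, 22.1 and 28.2 CPM in control unstimulated and 15.5, 16.1 and 15.1 CPM in control stimulated libraries. In deficient libraries it was 41.1, 24.8 and 24.04 CPM and 29.9, 19.2 and 15.7 CPM. Control groups did not overlap, and deficient stimulated library 1 lay above the unstimulated libraries 2 and 3. Its log2 change was -0.62 ± 0.24 (SE; edgeR adjusted p = 0.0398) in control cells, a call lost in 7 of 13 fits with 1 library left out (highest adjusted p = 0.103, without control stimulated library 3), and -0.48 ± 0.25 (SE; edgeR adjusted p = 0.123) in deficient cells. With the block both genotypes passed, at -0.53 ± 0.090 (SE; edgeR adjusted p = 3.94e-05) and -0.48 ± 0.088 (SE; edgeR adjusted p = 9.32e-05). Mad2l1, the checkpoint protein that holds Cdc20, was called lower with the block in both genotypes too. Bub1, a checkpoint kinase, was called lower with the block in deficient cells, at -0.43 ± 0.16 (SE; edgeR adjusted p = 0.0223), with -0.15 ± 0.16 (SE; edgeR adjusted p = 0.429) in control cells. Ttk, the Mps1 kinase, was called in neither, at -0.28 ± 0.21 (SE; edgeR adjusted p = 0.243) and -0.41 ± 0.20 (SE; edgeR adjusted p = 0.0747).

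Pttg1 stood apart in the group of the anaphase-promoting complex and sister separation. It encodes securin, the inhibitor of separase (chr11:43420250-43426251), and rose with stimulation in both genotypes while the other 3 genes of the group were lower. Control libraries held 14.3, 13.3, 14.2 and 12.8 CPM without stimulation, and 20.8, 20.02 and 23.9 CPM with it. In deficient libraries it went from 12.6, 13.1 and 11.8 CPM to 19.1, 18.4 and 18.2 CPM. The states did not overlap in either genotype. The log2 change was 0.66 ± 0.089 (SE; edgeR adjusted p = 7.67e-06) in control and 0.57 ± 0.096 (SE; edgeR adjusted p = 8.91e-05) in deficient cells, a 1.58-fold and a 1.48-fold higher level. Its unstimulated deficient library 1 was 1.01 times the mean of libraries 2 and 3, so Pttg1 did not share the excess of that library.

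Ube2c, the ubiquitin-conjugating enzyme of the anaphase-promoting complex, was the highest of the same group. Control libraries held 19.3, 36, 23.4 and 38.3 CPM without and 16.1, 25.4 and 16.02 CPM with stimulation. Deficient libraries held 67.8, 17.6 and 30.9 CPM and 49.3, 11.3 and 23.4 CPM. Groups overlapped, and each stimulated library lay below its partner, with log2 changes of -0.44 ± 0.085 (SE; edgeR adjusted p = 1.47e-04) and -0.49 ± 0.084 (SE; edgeR adjusted p = 3.99e-05) with the block, against -0.61 ± 0.58 (SE; edgeR adjusted p = 0.388) and -0.48 ± 0.60 (SE; edgeR adjusted p = 0.531) without it. Cdc20, the activator of the complex, and Espl1, separase, were called lower with the block in both genotypes, by between 0.27 and 0.56 on the log2 scale. A stretch of 22.8% of the exon bases of Ube2c is shared with Tnnc2 on the opposite strand, and no source used here says whether strand was used in the counting.

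The centromere and kinetochore group held the largest decrease of the 40 members in both genotypes. Ndc80, the microtubule-binding kinetochore subunit (chr17:71496100-71526857), stood at 29.7, 32.9, 29.9 and 30.8 CPM in control unstimulated and 11.01, 11 and 10.2 CPM in control stimulated libraries. Deficient libraries went from 35.1, 37.2 and 36.4 CPM to 15.6, 9.37 and 10.8 CPM. No stimulated library reached any unstimulated one. The log2 change was -1.52 ± 0.13 (SE; edgeR adjusted p = 4.84e-08) in control and -1.61 ± 0.14 (SE; edgeR adjusted p = 5.04e-08) in deficient cells, a 2.87-fold and a 3.05-fold lower level. Among unstimulated libraries the lowest and highest of the 4 control values differed by 1.11 times, so that Ndc80 did not share the spread of most members. Nuf2 and Spc25, its partners in the same complex, had log2 changes of -0.63 and -0.46 for control cells, and -0.42 and -0.49 for deficient cells; none of these 4 changes passed without the block, and with it both genes passed in deficient cells but not in control cells.

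Cenpa, the histone H3 variant that marks centromeres (chr5:30666777-30674830), also fell in both genotypes. Control libraries held 56.6, 45.1, 51.6 and 51.4 CPM without and 27.6, 23.9 and 29.1 CPM with stimulation. Deficient libraries held 48.2, 51.7 and 52.7 CPM and 29.9, 25.8 and 26.1 CPM. The states did not overlap in either genotype, and deficient library 1 was inside the range of the other libraries before stimulation. The log2 change was -0.93 ± 0.089 (SE; edgeR adjusted p = 1.70e-07) in control and -0.90 ± 0.094 (SE; edgeR adjusted p = 5.35e-07) in deficient cells, 1.90-fold and 1.86-fold lower. Cenpe, a kinetochore motor (chr3:135212537-135273611), stood at 31.5, 36.97, 32.5 and 45.4 CPM in control unstimulated and 17.9, 21.04 and 19.3 CPM in control stimulated libraries, without overlap. Deficient libraries held 61.03, 36.3 and 40.9 CPM and 46.1, 19.2 and 21.1 CPM, with overlap through library 1. Its log2 change was -0.91 ± 0.31 (SE; edgeR adjusted p = 0.0276) in control cells, lost in 4 of 13 fits with 1 library left out (highest adjusted p = 0.0861, without control stimulated library 1), and -0.68 ± 0.33 (SE; edgeR adjusted p = 0.0998) in deficient cells, where the block gave -0.74 ± 0.094 (SE; edgeR adjusted p = 1.36e-06). Cenpf, a large kinetochore protein of G2, was called lower only with the block, in both genotypes.

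**Figure D2:**
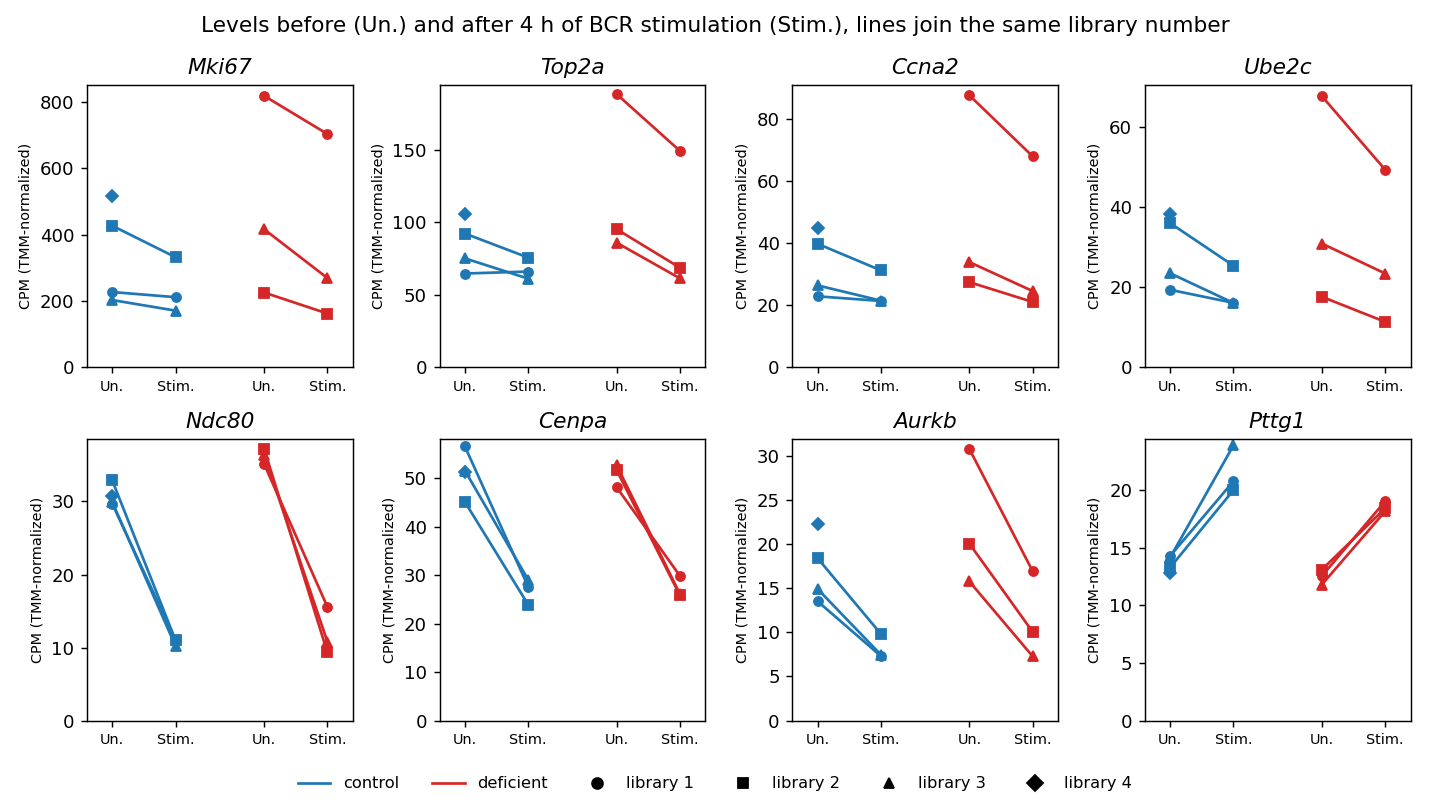
Levels in CPM (vertical axes from 0) of 8 members in each library before (Un.) and after 4 h of stimulation (Stim.), with lines joining libraries of the same number, in control (blue) and deficient (red) cells. Ndc80, Cenpa and Aurkb fell and Pttg1 rose in all 6 pairs, and deficient library 1 (circles) was above every other library of its state for Mki67, Top2a, Ccna2 and Ube2c.

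Among spindle motors and microtubule-associated proteins, none was called without the block. Kif11, the Eg5 motor that separates spindle poles, had the most reads of the group, though Nusap1 was higher per kilobase. It stood at 25.9, 36.5, 27.1 and 46.2 CPM in control unstimulated and 25.7, 29.8 and 24.2 CPM in control stimulated libraries. Deficient libraries held 81.03, 32.2 and 36.2 CPM and 57.8, 25.4 and 25.3 CPM. The groups overlapped in both genotypes. The change with the block was -0.16 ± 0.076 (SE; edgeR adjusted p = 0.0771) in control and -0.45 ± 0.074 (SE; edgeR adjusted p = 2.96e-05) in deficient cells, so that it passed in deficient cells alone, and the difference between the genotypes, -0.29 ± 0.11 (SE; edgeR adjusted p = 0.469), did not pass. Kif2c, a kinesin that takes microtubules apart, and Nusap1, a spindle protein, were called lower with the block in both genotypes, Kif4, a chromosome-bound kinesin, in deficient cells and Hmmr, a spindle protein that also binds hyaluronan, in control cells. Ckap2, another spindle protein, went the other way: its log2 change was above 0 in all 6 pairs, from 0.10 to 0.79, and passed with the block in control cells, at 0.47 ± 0.15 (SE; edgeR adjusted p = 0.0115), but not in deficient cells, at 0.15 ± 0.15 (SE; edgeR adjusted p = 0.38).

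All 6 genes of the central spindle and cytokinesis were called lower with the block in both genotypes. Racgap1, a subunit of centralspindlin, was the highest, with 35.5, 43, 41.7 and 52.8 CPM in control unstimulated and 32.4, 31.9 and 34.2 CPM in control stimulated libraries. In deficient libraries it was 62.9, 39.6 and 37 CPM and 48.97, 32.7 and 25.02 CPM. Control groups did not overlap, deficient groups did, and the change with the block was -0.28 ± 0.077 (SE; edgeR adjusted p = 0.00322) and -0.40 ± 0.076 (SE; edgeR adjusted p = 1.64e-04). Kif23, the motor of centralspindlin (chr9:61915905-61946774), also passed without the block in control cells. It stood at 22.6, 27.3, 24.02 and 32.4 CPM in control unstimulated and 14.8, 16.1 and 11.97 CPM in control stimulated libraries, with no overlap. Deficient libraries held 49.1, 25.01 and 24.4 CPM and 30.7, 14.3 and 15.2 CPM, and stimulated library 1 lay above unstimulated libraries 2 and 3. The log2 change was -0.90 ± 0.33 (SE; edgeR adjusted p = 0.0371) in control cells, lost in 6 of 13 fits with 1 library left out (highest adjusted p = 0.121, without control stimulated library 3), and -0.72 ± 0.34 (SE; edgeR adjusted p = 0.1) in deficient cells. Prc1 (a bundler of midzone microtubules), Anln (anillin of the contractile ring), Ect2 (the exchange factor for RhoA) and Kif20a (a midzone kinesin) were lower by between 0.35 and 0.66 with the block. Kif20a shares 29.3% of its exon bases with Cdc23 on the opposite strand, so that reads of the 2 genes may be mixed.

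The 2 proliferation marks were called lower only with the block. Mki67, which encodes the Ki-67 protein that coats mitotic chromosomes, stood at 226, 427, 202 and 517 CPM for control and 819, 225 and 416 CPM for deficient libraries without stimulation. After stimulation it was 211, 332 and 170.2 CPM and 704, 162 and 269 CPM. Its states overlapped in both genotypes, and the control unstimulated values alone covered a 2.56-fold range. With the block the change was -0.24 ± 0.070 (SE; edgeR adjusted p = 0.00896) in control and -0.44 ± 0.070 (SE; edgeR adjusted p = 8.95e-05) in deficient cells. Top2a, the topoisomerase that untangles sister chromatids, was also called lower with the block, with -0.19 ± 0.064 (SE; edgeR adjusted p = 0.016) and -0.43 ± 0.063 (SE; edgeR adjusted p = 7.27e-06).

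The stimulation responses of the genotypes were not distinguishable for any member. The difference of the responses, deficient minus control, was called for 0 of 40 members by edgeR, with 0.00737% of all genes called. It was also 0 by DESeq2, by limma and with the pair as a block, where 0.501% of all genes were called. At an unadjusted p under 0.05 there were 0 members without and 3 with the block (Kif11, Top2a and Prc1, chosen after their values were seen). Differences ran from -0.14 to 0.47 on the log2 scale without the block, with standard errors from 0.086 to 0.96. All 40 were smaller than 2 of their standard errors, so differences of that size could not be resolved in that fit. For Ndc80, with narrow errors, the difference in the same fit was -0.088 ± 0.18 (SE), and for Cenpa 0.030 ± 0.13. The direction depended on the fit. Without the block 28 of 40 differences were above 0, with a median of 0.12 (0.021 over all genes). With it 14 were above and 26 below 0, from -0.32 to 0.33, with a median of -0.10 (0.027 over all genes).

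**Figure D3:**
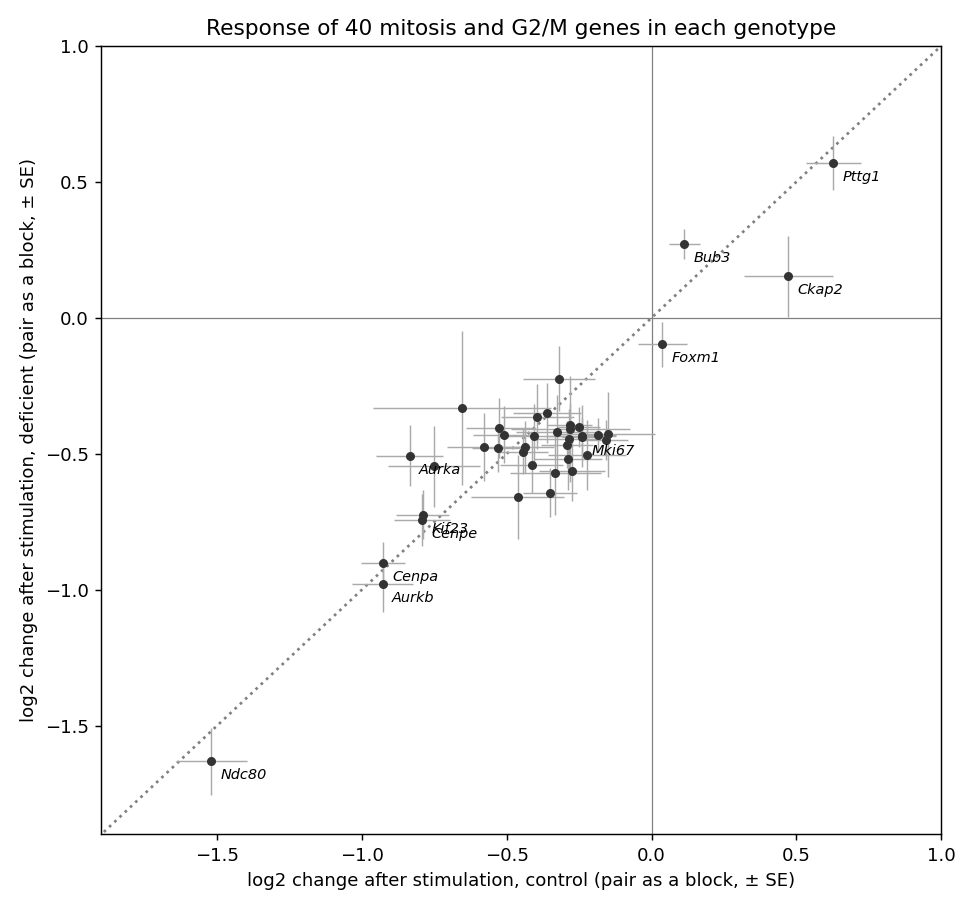
Log2 change after stimulation of the 40 members in control (horizontal) and deficient cells (vertical), from the fit with the pair as a block, with bars of ± 1 SE and a dotted line of equal change. Members cluster below 0 on both axes, Ndc80 lies lowest at -1.52 and -1.63, and Pttg1 highest at 0.63 and 0.57.

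The number of members called lower in control cells without the block moved with single libraries. It was 3 without unstimulated library 4, stimulated library 1, stimulated library 2 or stimulated library 3, and 4 without unstimulated library 2. Control unstimulated library 4, which has no partner, was the highest control library for 35 of 40 members, and without it the members' median change was -0.35. In deficient cells 14 members were called lower without stimulated library 1, with a median of -1.05, and 2 without unstimulated library 1, with a median of 0.044; each of these leaves the other library of pair 1 in the fit. Leaving out deficient stimulated library 2 or 3 also gave 2. Without both libraries of that pair 2 were called higher and 11 lower in deficient cells (28.2% and 26.7% of all genes), and 2 higher and 15 lower in control cells (31.0% and 31.3%), so that the shares called lower were near those of all genes. With the pair as a block and each pair left out in turn, 28 to 33 were called lower in deficient and 19 to 30 in control cells. Of all genes, 34.8% and 35.8% were called lower with the block and every pair kept. Over all genes, the fits with 1 library left out called 7197 to 7900 in deficient and 7513 to 8394 in control cells, in either direction. The 7900 were called without deficient stimulated library 1. With all libraries 13574 genes were tested. Ndc80, Cenpa and Pttg1 kept their calls in both genotypes, Bub3 in deficient and Aurkb in control cells, with any 1 library left out.

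No mitosis gene was called between deficient and control cells in the fit with a mean per group, in either state. Birc5, Kif2c and Aurka were called with sex as a term, as given below. Without stimulation 0 of 40 members were called by edgeR (0.324% of all genes tested were), and with stimulation also 0 of 40 (2.01%). At an unadjusted p under 0.05 there were 0 members without stimulation and 2 with it, Bub3 at 0.14 ± 0.063 (SE; edgeR adjusted p = 0.373) and Pttg1 at -0.22 ± 0.095 (SE; edgeR adjusted p = 0.372); DESeq2 and limma called 0 in both states. Even so 37 of 40 differences were above 0 without and 39 of 40 with stimulation, with medians of 0.47 and 0.53 (-0.019 and 0.003 over all genes). The comparisons with and without stimulation use libraries of the same pairs.

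These positive differences rested on deficient pair 1. Its unstimulated library was the highest of 7 for 36 of 40 members, against 14% of all genes tested, and its stimulated library the highest of 6 for 39 of 40, against 23.6%; for 36 members it was both, against 8.85%. The ratio of its level to the mean of deficient libraries 2 and 3 had a median of 2.12 over the members without stimulation (from 0.92 for Cenpa to 3.39 for Cdk1) and 2.30 with it (from 1.04 for Pttg1 to 4.51 for Anln). Over all genes that median was 0.937 and 1.001. Without both libraries of the pair the median difference between genotypes was -0.037 without and -0.020 with stimulation (all genes -0.006 and -0.001), with 18 of 40 and 19 of 40 above 0, and 0 of 40 called by edgeR in each (0.537% and 2.16% of all genes; 1 and 0 members at an unadjusted p under 0.05). For Mki67 the log2 difference went from 0.51 ± 0.61 to -0.11 ± 0.51 (SE) without stimulation, and for Cdk1 from 0.67 ± 0.56 to -0.20 ± 0.32. The pair was singled out for high levels of these same members, so the direction of this shift was fixed in advance. Only deficient libraries 2 and 3 of each state remained. Control unstimulated library 4, the highest control library for 35 of 40 members, stayed in.

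**Figure D4:**
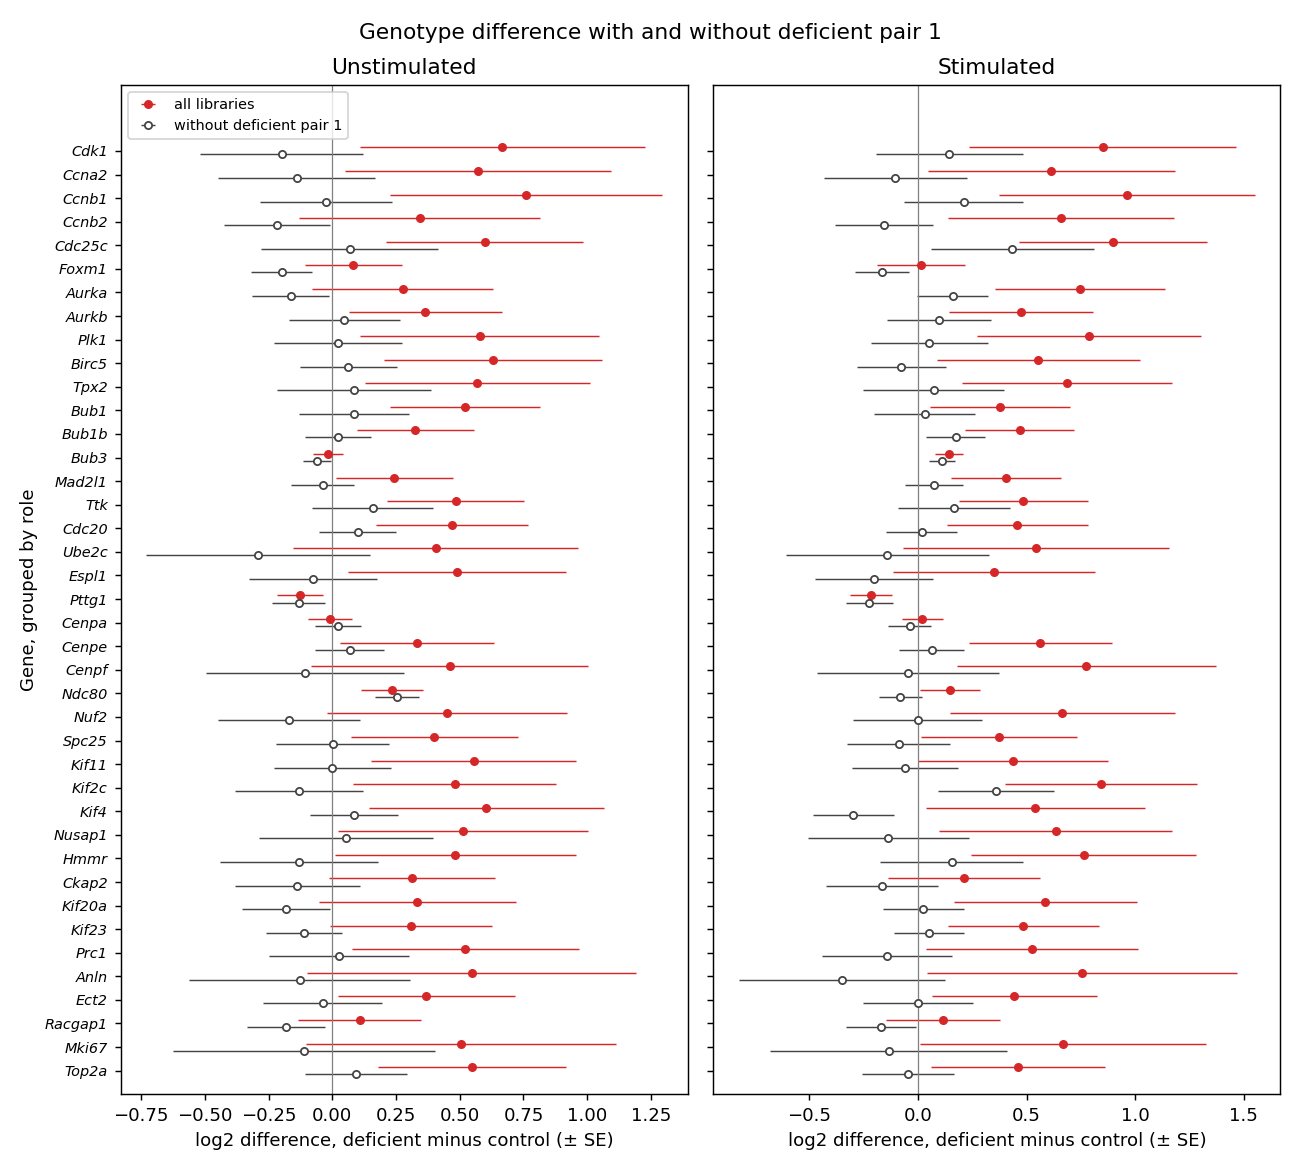
Log2 difference between deficient and control cells for each member (rows, grouped by role), without stimulation (left) and with it (right), from all libraries (red) and without both libraries of deficient pair 1 (open), with bars of ± 1 SE. The medians move from 0.47 and 0.53 to -0.037 and -0.020.

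Role groups took part in the excess of deficient pair 1 to different degrees. The summed CPM of the cyclins with CDK1 was 2.53 times the mean of deficient libraries 2 and 3 without and 2.48 times with stimulation. The ratio was 2.12 and 2.60 for the mitotic kinases, 2.29 and 2.62 for spindle motors, 2.01 and 2.28 for cytokinesis genes and 2.45 and 3.05 for the proliferation marks. It was smaller for the spindle checkpoint, 1.34 and 1.29, where Bub3 makes up most of the sum. At the kinetochore it was 1.45 without and 2.11 with stimulation. Ndc80, Cenpa, Bub3 and Pttg1 were the 4 members for which deficient library 1 was not the highest of the unstimulated libraries. Each of them also had a stimulation change called in deficient cells without the block, as did Aurkb. An excess in library 1 widens the errors of that fit, so the 2 traits are not independent. With the block 33 members were called lower in deficient cells.

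Few members separated the genotypes completely. Ndc80 was higher in all deficient than in all control unstimulated libraries, 35.1, 37.2 and 36.4 against 29.7, 32.9, 29.9 and 30.8 CPM. The log2 difference was 0.23 ± 0.12 (SE; edgeR adjusted p = 0.641); 1 of 40 members is 2.5%, against 8.72% of all genes with no overlap. After stimulation Aurka, Bub3 and Kif2c were higher and Pttg1 lower in all deficient libraries, 10% of the members against 17.8% of all genes. Without deficient pair 1 the log2 difference after stimulation was 0.16 ± 0.16 (SE) in Aurka, 0.36 ± 0.27 in Kif2c, 0.11 ± 0.058 in Bub3 and -0.22 ± 0.11 in Pttg1, against 0.75, 0.84, 0.14 and -0.22 with it, and that in Ndc80 without stimulation was 0.25 ± 0.087. The differences in Aurka and Kif2c were thus smaller without the pair, that in Pttg1 was much the same, and none of the 5 was called by edgeR. With sex as a term, Birc5 was called higher without stimulation (log2 difference 0.91, edgeR adjusted p = 0.0359), and Kif2c (1.03, 0.0229) and Aurka (0.87, 0.0405) with it. More of all genes were called in that fit as well, in both states, with the numbers given in the last section. Since deficient pair 1 holds the only female deficient libraries and control pair 1 the only male control ones, sex and those pairs cannot be told apart within a genotype.

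Markers of red cell precursors moved with deficient pair 1. Of 23 erythroid precursor genes listed, 18 had a row, and 14 of them were highest in deficient library 1 in each state. Of all genes tested, 14% were highest there without and 23.6% with stimulation. The summed level of the 18 without stimulation was 632, 1061, 692 and 1251 CPM for control libraries 1 to 4, and 2128, 441 and 1234 CPM for deficient libraries 1 to 3. With stimulation it was 1132, 1460 and 1227 CPM for control libraries and 2467, 909.5 and 1378 CPM for deficient ones. Tfrc and Car2, which B cells may express too, add to these sums, and without them the 16 remaining genes gave 1502, 216 and 883 CPM and 1350, 141 and 553 CPM in deficient libraries. Hba-a1, Hba-a2 and Hbb-b2 were at 0 in all 13 libraries. Library 3 lay above library 2 in both states.

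Other lists differed in how far they went with the same pair. Deficient library 1 was the highest of its state for 3 of 10 neutrophil genes without and 8 with stimulation, and for 4 and 3 of 11 macrophage genes. It was so for 14% and 23.6% of all genes tested. The counts were 4 and 6 of 9 dendritic cell genes, 6 of 8 platelet and megakaryocyte genes in each state, and 4 of 8 haematopoietic progenitor genes in each state. The dendritic cell sum of deficient library 1 was below that of control library 3, at 251.9 against 267.4 CPM without and 235.4 against 237 CPM with stimulation. The progenitor sum was 1.44 times the mean of deficient libraries 2 and 3 without and 1.07 times with stimulation. The platelet genes summed to only 12.27, 8.64 and 12.45 CPM in deficient unstimulated libraries. Neutrophil and neutrophil precursor genes (10 of 11 with a row) summed to 470.1, 71.4 and 54.2 CPM in deficient unstimulated and 319.6, 39.7 and 38.4 CPM in deficient stimulated libraries, against 33.9, 97.6, 244 and 418 CPM and 22.3, 66.8 and 164 CPM in control. Macrophage and monocyte genes (11 of 12) summed to 572, 232 and 152 CPM and 214, 93.7 and 81.1 CPM in deficient libraries, against 176, 216, 502 and 451 CPM and 102, 102 and 201 CPM in control. Germinal centre genes (6 of 8) were lower in deficient library 1 than in libraries 2 and 3 without stimulation, at 91.7, 114 and 118 CPM, and so were mature B cell genes, at 5728, 6616 and 6835 CPM. With stimulation the germinal centre sums were 82.2, 97.9 and 81.5 CPM, and the mature B cell sums 2748, 2954 and 3040 CPM. For pro-B and pre-B genes the sums were 134, 145 and 156 CPM without stimulation. With it they were 99.03, 82.8 and 89.8 CPM, so that library 1 was then the highest of the 3. Vpreb2 was at 0 in all libraries and Vpreb1 at 0 in 9 of 13. The part of these cells in the levels of the mitosis genes was not tested.

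**Figure D5:**
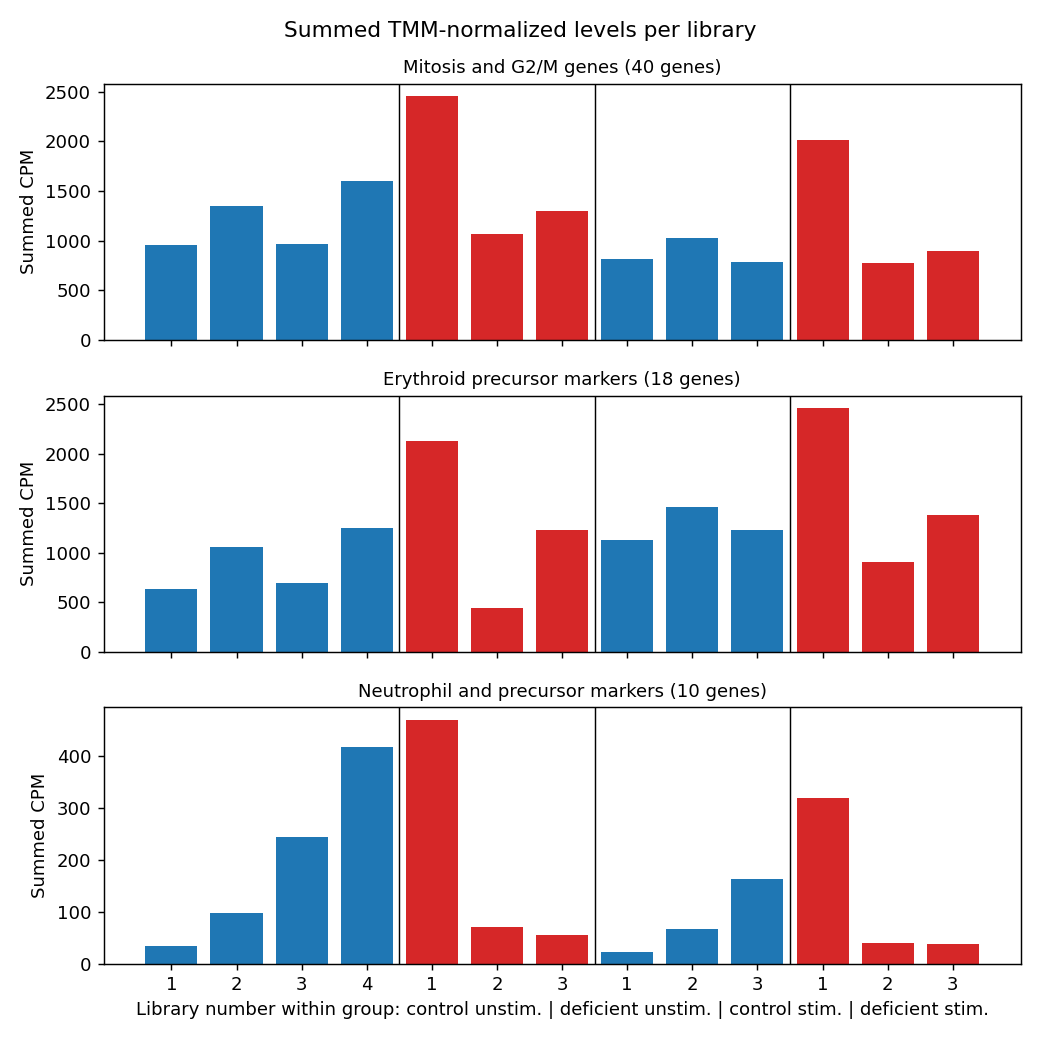
Summed TMM-normalized CPM in each library, in order of group and library number, of the 40 mitosis genes (top), 18 erythroid precursor markers (middle) and 10 neutrophil markers (bottom), in control (blue) and deficient (red) cells. Deficient library 1 is the highest of its state in all 3 panels, at 2458 and 2011 CPM for the mitosis genes.

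The sum of the 40 members was lower after stimulation in all 6 pairs. Of all genes tested, 36.7% were lower in all 6. The sum of the full list of 18 erythroid genes was higher after stimulation in all 6 pairs. Within it Tfrc rose in all 6, from 171 to 728 CPM in control pair 1, whereas Car2 fell in all 6. Without Tfrc and Car2 the sum of the other 16 was lower in all 6 pairs. In control libraries it went from 391, 738, 454 and 874 CPM to 341, 557 and 433 CPM. Over the 6 pairs the log2 changes ran from -1.98 to -1.17 in Ndc80 and from -1.03 to -0.69 in Cenpa. How much of the decrease in any member, Ndc80 and Cenpa included, comes from each cell type was not tested.

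Other genes of the pathway, from lists of known members, gave the setting for these values. Of 65 other G2/M and mitosis genes tested, 5 rose and 12 fell in control cells and 4 rose and 11 fell in deficient cells after stimulation, a smaller share in each direction than among all genes (28.5% and 31.8% in control, 28.3% and 29.6% in deficient cells). With the block it was 6 and 32, and 5 and 39, against 29.4% and 35.8%, and 30.8% and 34.8%, of all genes. Their median log2 change without the block was -0.45 in control and -0.45 in deficient cells. The leading ones moved both ways: Wee1, the kinase that inhibits CDK1, rose by 1.09 ± 0.13 (SE; edgeR adjusted p = 1.54e-06) in control and 0.91 ± 0.14 (SE; edgeR adjusted p = 2.82e-05) in deficient cells, and Lmnb1, lamin B1 of the nuclear envelope, by 0.71 ± 0.063 (SE; edgeR adjusted p = 6.79e-08) and 0.63 ± 0.068 (SE; edgeR adjusted p = 7.64e-07). Tubb5, a beta tubulin, changed by -0.91 ± 0.091 (SE; edgeR adjusted p = 2.89e-07) and -0.85 ± 0.096 (SE; edgeR adjusted p = 1.28e-06). Cdc25b, a phosphatase that activates CDK1, had the largest change of the list in both genotypes and was chosen after its values were seen; its log2 change was -2.24 ± 0.28 (SE; edgeR adjusted p = 5.00e-05) and -1.77 ± 0.29 (SE; edgeR adjusted p = 3.74e-04). Zwint, a kinetochore protein, was among the leading 4 in control cells, at 0.44 ± 0.064 (SE; edgeR adjusted p = 1.86e-05), and Trip13, an ATPase that turns the checkpoint off, in deficient cells, at 0.79 ± 0.14 (SE; edgeR adjusted p = 9.94e-05).

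Without the block, subunits of the anaphase-promoting complex were called about as often as other genes or less. With it 3 rose and 6 fell in control cells, and 4 rose and 4 fell in deficient cells. Of the 16 subunits and regulators, 3 rose and 5 fell in control cells without the block, and 4 rose and 3 fell in deficient cells. Of all genes 28.5% rose and 31.8% fell in control cells, and 28.3% and 29.6% in deficient cells. Cdc16 changed by 0.67 ± 0.057 (SE; edgeR adjusted p = 3.87e-08) and 0.72 ± 0.061 (SE; edgeR adjusted p = 4.92e-08), Cdc23 by 0.34 ± 0.064 (SE; edgeR adjusted p = 2.40e-04) in deficient cells, Anapc2 by -0.65 ± 0.046 (SE; edgeR adjusted p = 3.90e-09) and -0.52 ± 0.048 (SE; edgeR adjusted p = 1.26e-07) and Anapc4 by -0.56 ± 0.068 (SE; edgeR adjusted p = 2.32e-06) and -0.41 ± 0.072 (SE; edgeR adjusted p = 1.18e-04); Anapc11 changed in control cells by -0.65 ± 0.11 (SE; edgeR adjusted p = 9.71e-05). Cdc27, another subunit, was the 1 gene of the 4 lists called between genotypes: it was higher in deficient stimulated cells, at 0.50 ± 0.091 (SE; edgeR adjusted p = 0.00792).

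Without the block, regulators of the programme were called at shares near or below the background too. Of 20 DREAM, MuvB, B-Myb and E2F genes, 6 rose and 6 fell in control cells, and 4 rose and 6 fell in deficient cells, with the same shares of all genes as above for that fit. With the block 6 rose and 9 fell in control cells, and 5 rose and 10 fell in deficient cells. Of all genes 29.4% rose and 35.8% fell in control cells, and 30.8% and 34.8% in deficient cells. The share that fell with the block was thus larger than among all genes in both genotypes. Rbl2, the p130 pocket protein of the DREAM complex in resting cells, fell, with log2 changes of -1.79 ± 0.097 (SE; edgeR adjusted p = 2.32e-10) and -1.80 ± 0.10 (SE; edgeR adjusted p = 4.69e-10), further from 0 than those of any of the 40 members in the same fit. Rb1, the retinoblastoma protein, also fell, with -0.60 ± 0.063 (SE; edgeR adjusted p = 4.22e-07) and -0.59 ± 0.067 (SE; edgeR adjusted p = 1.24e-06). Tfdp1, the DP1 partner of E2F factors, rose by 1.12 ± 0.11 (SE; edgeR adjusted p = 2.66e-07) and 1.13 ± 0.12 (SE; edgeR adjusted p = 6.62e-07), and E2f4, the E2F of the DREAM complex, by 0.52 ± 0.051 (SE; edgeR adjusted p = 1.85e-07) and 0.59 ± 0.055 (SE; edgeR adjusted p = 1.31e-07).

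Replication genes act before mitosis. Of 40, without the block, 7 rose and 10 fell in control cells and 6 rose and 6 fell in deficient cells, with medians of -0.15 and -0.043. Each of these counts is a smaller share than among all genes (28.5% and 31.8%, and 28.3% and 29.6%), which had medians of -0.13 and -0.11. With the block 11 rose and 17 fell in control cells, and 8 rose and 14 fell in deficient cells. The shares of all genes were then 29.4% and 35.8%, and 30.8% and 34.8%. The share that fell with the block was thus larger than among all genes in control cells and near it in deficient cells. Pcna, the sliding clamp, rose by 0.74 ± 0.075 (SE; edgeR adjusted p = 2.97e-07) and 0.77 ± 0.081 (SE; edgeR adjusted p = 5.66e-07), and Mcm2, a helicase subunit, by 0.52 ± 0.080 (SE; edgeR adjusted p = 3.35e-05) and 0.52 ± 0.086 (SE; edgeR adjusted p = 8.44e-05). Cdt1, a licensing factor, fell, with -0.41 ± 0.052 (SE; edgeR adjusted p = 3.65e-06) and -0.37 ± 0.055 (SE; edgeR adjusted p = 2.54e-05), and Mcm4, also a helicase subunit, with -0.36 ± 0.070 (SE; edgeR adjusted p = 3.42e-04) and -0.32 ± 0.075 (SE; edgeR adjusted p = 0.00179). Between genotypes the 4 lists had 0 genes called without stimulation, with medians from -0.022 for the anaphase-promoting complex to 0.32 for the other mitosis genes, which without deficient pair 1 were -0.028 and -0.027.

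Some levels may hold reads of other genes. Exon bases are shared with a gene on the opposite strand for Ccna2 (12.5%, Exosc9), Cdc25c (12.7%, Gm3550), Kif4 (15.1%, Pdzd11) and Prc1 (11.1%, Rccd1), besides Ube2c and Kif20a above. Ccnb1 has processed pseudogenes, Gm12856, Gm8416 and Ccnb1-ps, that match between 97.3% and 99.2% over about 52% of its transcript. Values of these genes are therefore uncertain by an amount the counts do not show.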

How the data were processed

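RNA of splenic B cells from 13 libraries was sequenced by Illumina sequencing, per the labels' protocols. Per the submitters' processing notes, TopHat, HTSeq, DESeq2 and mm10 were used; versions, strand setting and treatment of multiply mapped reads are not given in the sources used here. Read counts for each gene symbol, as the authors deposited them, enter all tests and their deposited log2 values of DESeq2-normalized expression were used in 1 alternative. One symbol with a missing cell was left out. Counts were analysed in R 4.3.3 with edgeR 4.0.16: filterByExpr by group (minimum count 10), TMM scaling, a mean per group over all 13 libraries, robust quasi-likelihood tests, and Benjamini-Hochberg adjustment over 13574 genes, called at 0.05. Where a log2 CPM is given, the prior count was 2. The fit with the pair as a block has 1 mean per pair and 1 response per genotype and 4 residual degrees of freedom. Library numbers pair the states within a genotype: deviations from group means over 8656 genes correlated between same-numbered libraries (r = 0.711, 0.605 and 0.574 for control, 0.803, 0.75 and 0.558 for deficient libraries), each library correlating best with its own number. Across genotypes r was between -0.563 and -0.06, so numbers do not pair control with deficient libraries. Replicate libraries differed beyond sampling noise, with chi-square values per gene from 7.96 to 35.3. The scripts were tested on simulated data.

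The members and lists were chosen with earlier results of these data known. Values in every library are given for the highest member of each role group and for members called in any comparison, up to 8 per comparison by smallest p. Up to 4 genes with the smallest p are named per pathway list and comparison. Alternatives were other size factors, DESeq2 1.42.0, limma 3.58.1 on the deposited log2 values, other filters, fewer samples, blocks and sex as a term; leaving out each pair with the block, and the block with DESeq2 size factors, were added after the data were seen. Promoters are from RefSeq (GRCm38.p6), and gene positions and exon lengths from GENCODE vM21 (mm10).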

Additional observations from a re-analysis of the deposited data

How the results depend on the processing

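Calls among the mitosis genes between genotypes were 0 under all alternatives except sex as a term, which gave 1 higher without and 2 higher with stimulation. That fit called 198 of all genes without and 511 with stimulation, in either direction. The median difference with stimulation, 0.53, was -0.020 without deficient pair 1. Over all genes, 44 were called between genotypes without stimulation, against 163 by DESeq2, 9 by limma on the deposited log2 values, 198 with sex as a term and 74 without deficient pair 1 (17 to 74 with 1 library left out); with stimulation 273 were called, against 532 by DESeq2 and 511 with sex as a term (129 to 369). DESeq2 size factors moved the split of higher and lower calls without stimulation from 17 and 27 to 21 and 20, and limma to 7 and 2. After stimulation the median change of all genes was -0.13 in control and -0.11 in deficient cells, against -0.058 and -0.074 with DESeq2 size factors and 0 in the deposited log2 values, and members are read relative to it.

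After stimulation, control members called higher numbered 2 in place of 1 with DESeq2 size factors, by DESeq2, with only the 2 groups compared, with the pair as a block, by limma and without deficient pair 1. Those called lower numbered 4 with DESeq2 size factors, 4 with no filter, 14 with only the groups compared, 28 with the pair as a block, 3 by limma and 15 without deficient pair 1, in place of 7. In deficient cells they numbered 33 with the block, 8 with sex as a term and 11 without deficient pair 1, in place of 3. Of all 13574 genes tested, 4318 were called lower in control cells in the main fit, 3928 with DESeq2 size factors and 4864 with the block. In deficient cells these numbers were 4015, 3772 and 4719. Limma called 3411 of 20945 rows lower in control cells. With 1 library left out, control members called higher ran from 1 to 2 and lower from 3 to 9, and deficient members called lower from 2 to 14. The members' median ran from -0.032 to 0.675 and from -0.02 to 0.786 between genotypes without and with stimulation, from -0.714 to -0.35 in control and from -1.046 to 0.044 in deficient cells after stimulation, and from -0.5 to 0.485 for the difference of the responses. Genes called for that difference numbered 1, against 48 by DESeq2, 10 with no filter, 68 with the block, 0 by limma, 19 with sex as a term and 13 without deficient pair 1 (1 to 10 with 1 library left out). The causes were not tested. The additive block of library number across genotypes left 1 higher and 6 lower in control cells. The block with DESeq2 size factors gave 3 higher and 23 lower in control and 2 and 33 in deficient cells. The member with fewest reads had 20 in its lowest library.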
